A study of Mus musculus with 6 samples.

Results

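The translation initiation and elongation factors of the mouse were taken as the genes whose symbol begins with Eif or Eef and then a digit, leaving out the regulators whose symbols begin with Eif2ak, Eif4ebp, Eif4enif or Eef2k. They made up 53 of the 23698 gene rows, 46 of them Eif and 7 Eef, and 1 row joined the names Eif3j1 and Eif3j2. The study asked how the choice of 5′UTR relates to translation in a model of squamous cell carcinoma (SCC). The cells were primary keratinocytes from the back skin of newborn (P0) mice at passage 10 to 15, and all 3 libraries used here carried the same genotype, HrasG12V with Tgfbr2 fl/fl KO, that is, an activated Ras GTPase together with loss of a TGF-beta receptor. There was 1 ribosome profiling library, which counts the mRNA fragments covered by ribosomes (footprints), and there were 2 RNA-seq libraries of total mRNA. No wild-type counts were analysed here, so every value is a level within SCC cells and none is a change between genotypes. Nothing in the labels says whether the RNA-seq replicates came from separate cultures.

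Protein synthesis starts when eIF2 brings the initiator tRNA to the small ribosomal subunit, eIF3 and the small factors eIF1, eIF1A and eIF5 hold the scanning complex together, and eIF4F (the cap-binding eIF4E, the scaffold eIF4G and the helicase eIF4A) recruits it to the mRNA cap. During elongation eEF1A delivers aminoacyl-tRNA, the eEF1B subunits recharge eEF1A with GTP, and eEF2 moves the ribosome along by one codon. Control of these steps is known to matter for the growth and transformation of epidermal cells, and several of the factors are themselves made from TOP mRNAs, whose 5′ end opens with a run of pyrimidines and whose translation follows mTOR activity.

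The footprint library held 3198469 counts on coding sequences (CDS). Exon counts came to 10707930 in RNA-seq replicate 1 and to 14003713 in replicate 2. Levels are given as RPKM, that is, counts scaled to the counted length and to the total of the library, on the CDS for footprints and on exons for RNA-seq, so that genes can be compared per length. Translational efficiency (TE) is the footprint RPKM divided by the mean RNA-seq RPKM, as log2 relative to the median of the 9863 genes that had over 1 RPKM in both RNA-seq libraries, a mean normalised count over 25 and footprints on the CDS. With 1 footprint library, TE has no replicate of its own, so it is given with its SD over the 2 RNA-seq replicates or with an exact 95% counting interval (Clopper-Pearson), which covers counting error only. All 7 keratinocyte markers exceeded 1 RPKM, with Krt5 the most abundant at 7965 and 9483 RPKM, which fits the labelled cell type. Of 7 fibroblast markers 4 exceeded 1 RPKM, summing to 10.1 RPKM in replicate 1 and 15.5 in replicate 2 over the whole list, with Col3a1 highest at 3.89 and 5.49 RPKM and 10 footprints over the list. Of 3 immune markers Cd68 alone exceeded 1 RPKM, at 35.1 and 37.3 RPKM, and Cd3e was at 0. Of 4 melanocyte markers Pmel alone did, at 5.03 and 5.19 RPKM, and of 3 endothelial markers none did. The part of these cells in the members' levels was not tested.

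Of the 53 factors, 51 passed the filter, and the remaining pair, Eef1a2 and Eif4e1b, had no count in any library. A 0 allows up to 3 counts as a 1-sided 95% limit, or 3.69 footprints by the exact interval with both sides. Eef1a2 is the form of eEF1A found in muscle and neurons, and Eif4e1b is an eIF4E relative of the oocyte. The median log2 TE of the 51 was 0.39 ± 0.05 (SD over the RNA-seq replicates), with 35 above and 16 below the median of all genes. Of them 20 had a log2 TE above 1, which is 39.2% against 20.8% of all genes that passed, and 7 had one below -1, which is 13.7% against 21.1%. At least 100 counts in each library were found for 47 members. Among all 4829 genes past that minimum the median was also 0.39, with 29.2% above 1 and 8.64% below -1, whereas the 47 members had a median of 0.33, with 38.3% above 1 and 12.8% below -1. Centred on those genes, the median of the 47 members turned to -0.059. Past the same minimum the factors therefore had no higher median TE. The members were still deeper, with a median of 1055 footprints against 245, and the difference in shares was not tested. Their spread was wide, with an SD over members of 1.44 beside 1.45 over all genes, so the members shared no common TE and are described by role.

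**Figure D1:**
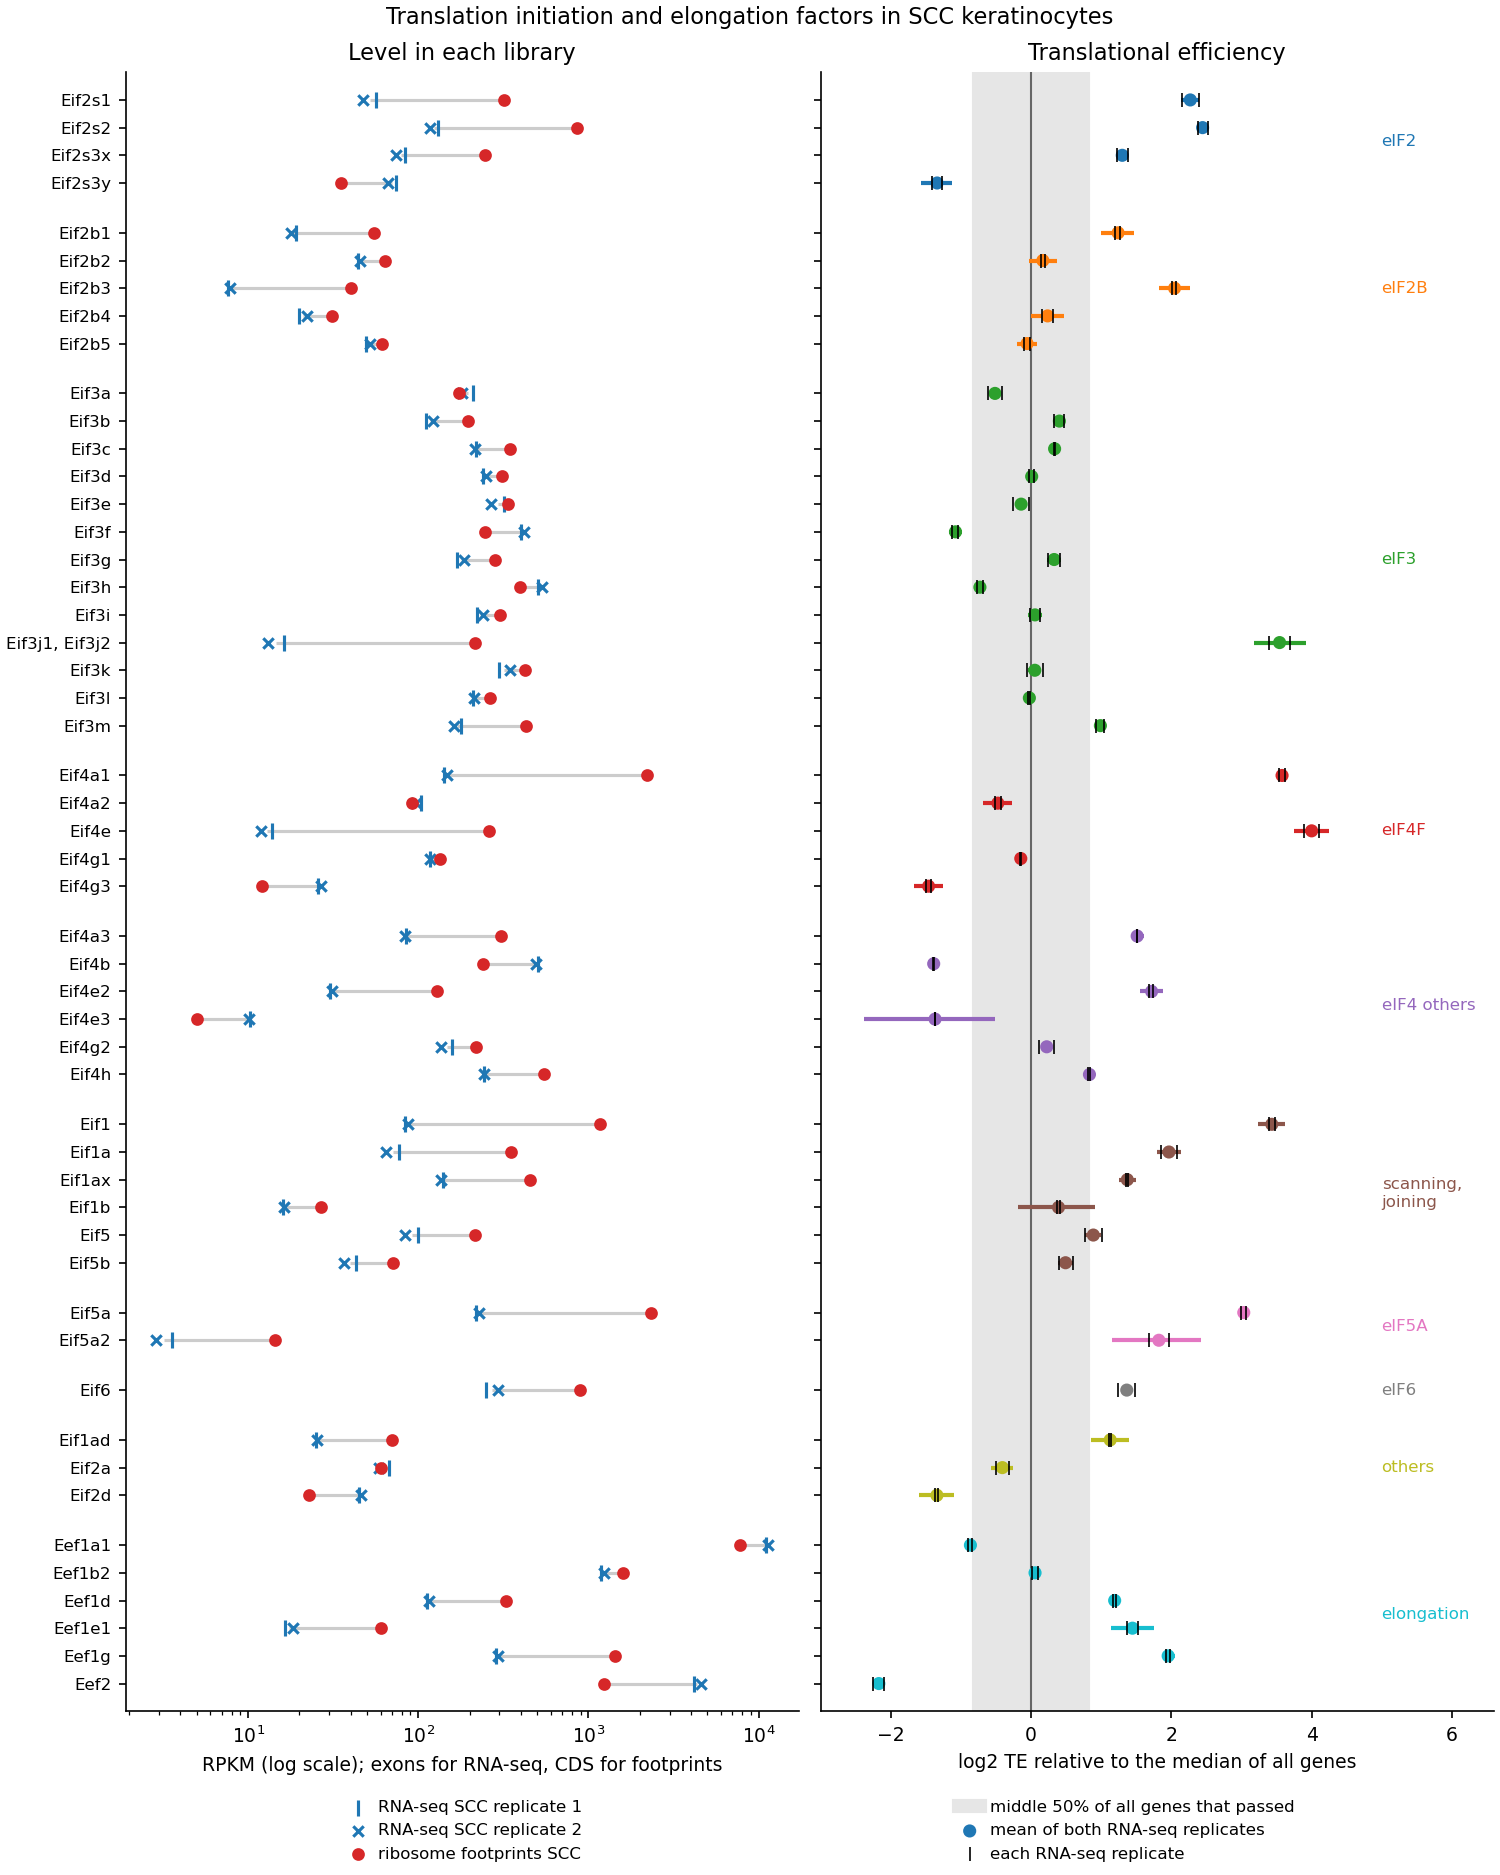
Levels and TE of the 51 factors that passed, grouped by role. Left, RPKM on a log axis in each RNA-seq replicate (exons, bar and cross) and in the footprint library (CDS, red dot). Right, log2 TE relative to the median of all genes, with the exact 95% counting interval as a line, the value from each RNA-seq replicate as a tick and the middle 50% of all genes as a grey band. In this main setting (RNA-seq on exons, counts divided by length) Eif4e is highest at 4.002 and Eef2 lowest at -2.17. The single-gene rows of eIF3 range from -1.08 for Eif3f to 0.99 for Eif3m.

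Of the 4 genes of eIF2, the factor of the ternary complex, 3 had a log2 TE above 1 and Eif2s3y one below -1. Its beta subunit gene Eif2s2 had 856 RPKM of footprints over 131 and 117 RPKM of RNA-seq in replicates 1 and 2. This gave a log2 TE of 2.45 ± 0.10, or 5.45-fold the median gene. The alpha subunit gene Eif2s1, whose product is phosphorylated under stress, had 318 RPKM of footprints over 56.4 and 47.5 RPKM of RNA-seq, a log2 TE of 2.27 ± 0.16. Annotated coding length means here all positions that are coding in any transcript of the GENCODE M21 annotation, so it can exceed 1 coding sequence. For Eif2s1 only 53.4% of it was counted. Its 3′UTR held 74.6% of the exon length but 24.9% of the RNA-seq counts of replicates 1 and 2 together. With RNA-seq counted on the CDS alone its log2 TE was 1.02.

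The gamma subunit, which binds GTP and the initiator tRNA, is encoded on the X chromosome by Eif2s3x and on the Y chromosome by Eif2s3y. Eif2s3x had 247 RPKM of footprints over 83.6 and 74.4 RPKM of RNA-seq. Eif2s3y had 35.2 RPKM of footprints over 74.1 and 66.6 RPKM of RNA-seq. Per length of exon the RNA-seq level of Eif2s3x was thus 1.13-fold and 1.12-fold that of Eif2s3y in replicates 1 and 2, but on the CDS it was 0.594-fold and 0.604-fold, so the direction depends on the region counted. The footprint level was 7.01-fold that of Eif2s3y. Log2 TE was 1.30 ± 0.11 for Eif2s3x and -1.34 ± 0.10 for Eif2s3y. The coding sequences of the pair are nearly the same, so reads could be shared between them in counting and both values are uncertain. Of the exon counts of Eif2s3x 75.9% lay on the 3′UTR, against 8.72% for Eif2s3y, and with RNA-seq on the CDS the log2 TE values were 2.32 and -1.23.

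The 5 subunits of eIF2B, the exchange factor that reloads eIF2 with GTP, were less abundant, with footprint levels from 31.2 (Eif2b4) to 64.0 RPKM (Eif2b2). Their RNA-seq levels, as means of both replicates, ranged from 7.72 (Eif2b3) to 50.4 RPKM (Eif2b5). The median log2 TE was 0.23, with 2 of 5 above 1. Eif2b3 had the highest at 2.05 (interval 1.82 to 2.27), from 40.4 RPKM of footprints over 7.61 and 7.84 RPKM of RNA-seq. Its 3′UTR made up 61.0% of the exon length and held 2.72% of the RNA-seq counts, and on the CDS its log2 TE was 0.98. Eif2b1 had 1.24, which on the CDS became 0.95, so that none of the 5 was then above 1. The values of Eif2b2, Eif2b4 and Eif2b5 on exons lay between -0.06 and 0.23.

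The subunits of eIF3, the largest initiation factor and the platform that joins the small ribosomal subunit to the mRNA, had a median log2 TE of 0.05 ± 0.11, and 11 of 13 rows lay between -1 and 1. The median was -0.36 among genes with at least 100 counts in each library and 0.82 with counts not divided by length, so its place relative to all genes depends on these choices. The 12 rows of single genes had footprint levels from 173 RPKM (Eif3a) to 427 RPKM (Eif3m), a range of 2.47-fold. Their mean RNA-seq levels ranged from 117 RPKM (Eif3b) to 517 RPKM (Eif3h), a range of 4.42-fold. Footprints were therefore more even over the subunits than mRNA was, a difference that was not tested because subunits are not replicates.

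Within eIF3 the 2 subunits with the most mRNA per length, Eif3h and Eif3f, had the lowest TE. RNA-seq RPKM is the divisor of TE, so a high mRNA level lowers TE by construction unless footprints rise with it. Eif3h had 395 RPKM of footprints over 505 and 530 RPKM of RNA-seq, a log2 TE of -0.73 ± 0.06. Eif3f had 245 RPKM of footprints over 400 and 419 RPKM of RNA-seq, a log2 TE of -1.08 ± 0.06. Both are the MPN-domain subunits of the complex. At the other end Eif3m, a PCI-domain subunit, had 427 RPKM of footprints over 178 and 162 RPKM of RNA-seq, a log2 TE of 0.99 ± 0.08. Eif3b, a scaffold subunit that binds Eif3g and Eif3i, had 196 RPKM of footprints over 112 and 122 RPKM of RNA-seq, a log2 TE of 0.40 ± 0.11. The largest subunit gene, Eif3a, had 173 RPKM of footprints over 210 and 181 RPKM of RNA-seq, a log2 TE of -0.52 ± 0.14.

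The remaining subunits stayed within 0.34 of the median gene. Eif3c, which contacts eIF1 and eIF5, had 346 RPKM of footprints over 218 and 215 RPKM of RNA-seq, a log2 TE of 0.33. Eif3d, a cap-binding subunit, had 312 RPKM of footprints over 241 and 248 RPKM of RNA-seq, a log2 TE of 0.01. Eif3e had 337 RPKM of footprints over 319 and 268 RPKM of RNA-seq, a log2 TE of -0.14, and ranked among the 3 most different between replicates of the members with at least 100 counts. Eif3g, Eif3i, Eif3k and Eif3l, peripheral or regulatory subunits, had log2 TE values of 0.33, 0.05, 0.05 and -0.03. Their footprint levels were 283, 304, 422 and 264 RPKM.

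The joined row Eif3j1, Eif3j2 stood apart. The loosely bound eIF3j subunit is encoded by 2 near-identical genes, and only 189 nt of CDS were counted for them. On these lay 145 footprints, or 217 RPKM, over 16.2 and 13.1 RPKM of RNA-seq, which gave a log2 TE of 3.54 (interval 3.18 to 3.92). With RNA-seq on the CDS the value was 5.89, from 6.56 RNA-seq counts there in replicate 1 and 10.1 in replicate 2, so the row is uncertain and says little about the genes.

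The main eIF4F components, Eif4e, Eif4a1 and Eif4g1, spanned 16.4-fold in footprints and 11.2-fold in mRNA. In the main setting Eif4e, the cap-binding protein and the target of the eIF4E-binding proteins, had the highest log2 TE of all members. Its value was 4.002 ± 0.15, or 16.0-fold the median gene. It had 262 RPKM of footprints, from 185 counts, over 13.9 and 11.9 RPKM of RNA-seq. Only 29.8% of its annotated coding length was counted, and with RNA-seq on the CDS its log2 TE was 3.20. There it lay below the joined row Eif3j1, Eif3j2 (5.89), Eif4a1 (3.74) and Eif1 (3.65). With counts not divided by length Eif4e had 1.95, below Eif4a1 at 3.82 among others. Eif4a1, the main helicase, had 2197 RPKM of footprints over 142 and 148 RPKM of RNA-seq, a log2 TE of 3.58 ± 0.06. Here 85.2% of the coding length was counted and 8600 footprints lay on it, and with RNA-seq on the CDS the value was 3.74. Eif4g1, the main scaffold, had 134 RPKM of footprints over 117 and 117 RPKM of RNA-seq, a log2 TE of -0.15 ± 0.02. Per length, footprints of Eif4g1 were 0.512-fold those of Eif4e, while its mRNA was 8.41-fold and 9.90-fold that of Eif4e in replicates 1 and 2, or 4.30-fold and 4.87-fold when counted on the CDS.

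Among the paralogues of the eIF4F components, Eif4a2, Eif4a3 and Eif4g3 had a lower TE than the main forms, and Eif4g2 a higher one than Eif4g1 with RNA-seq on exons. Eif4a2, a helicase close in sequence to Eif4a1, had 91.6 RPKM of footprints over 104 and 96.8 RPKM of RNA-seq, a log2 TE of -0.48. On exons the mRNA of Eif4a1 was 1.36-fold and 1.53-fold that of Eif4a2 in replicates 1 and 2, and on the CDS 0.836-fold and 0.982-fold, so its direction depends on the region counted. Footprints of Eif4a1 were 24.0-fold those of Eif4a2. Reads that match both genes could be shared in counting, and 48.0% of the Eif4a2 coding length was counted, so this difference is uncertain. Eif4a3, the helicase of the exon junction complex, had 305 RPKM of footprints over 85.2 and 83.6 RPKM of RNA-seq, a log2 TE of 1.51. The scaffold paralogue Eif4g3 had 12.1 RPKM of footprints over 25.7 and 26.8 RPKM of RNA-seq, a log2 TE of -1.46 (interval -1.68 to -1.26). Eif4g2, a scaffold without the eIF4E site that serves cap-independent initiation, had 217 RPKM of footprints over 158 and 135 RPKM of RNA-seq, a log2 TE of 0.22 ± 0.15. It turned to -0.65 with RNA-seq on the CDS.

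The eIF4E relatives Eif4e2 and Eif4e3 had fewer footprints per length than Eif4e. Eif4e2, which binds caps without joining eIF4G and can repress translation, had 128 RPKM of footprints over 30.2 and 31.1 RPKM of RNA-seq, a log2 TE of 1.72. On the CDS this became -0.06, and its 3′UTR held 72.8% of the exon length but 21.7% of the RNA-seq counts. Eif4e3 had 11 footprints, or 4.99 RPKM, over 10.2 and 10.1 RPKM of RNA-seq, a log2 TE of -1.37 (interval -2.38 to -0.52). The cofactors of the helicase diverged. Eif4h had 549 RPKM of footprints over 242 and 245 RPKM of RNA-seq, a log2 TE of 0.83. Eif4b, whose product stimulates eIF4A and is phosphorylated downstream of mTOR, had 241 RPKM of footprints over 502 and 495 RPKM of RNA-seq, a log2 TE of -1.39.

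In the main setting the 6 factors of scanning and subunit joining had a log2 TE above 0, with a median of 1.13 ± 0.10, and in 1 of them, Eif1b, the counting interval reached below 0. With counts not divided by length Eif1a fell to -0.44 and Eif1b to -0.04. Eif1, which guards start codon choice, had 1169 RPKM of footprints over 83.3 and 87.3 RPKM of RNA-seq, a log2 TE of 3.43 (interval 3.24 to 3.62). Its counted CDS was 79 nt, or 15.6% of the annotated length, with 328 footprints. Its paralogue Eif1b had 26.7 RPKM of footprints over 16.0 and 16.2 RPKM of RNA-seq, a log2 TE of 0.39 (interval -0.18 to 0.92). The pair therefore differed by 43.7-fold in footprints and by 5.22-fold and 5.39-fold in mRNA (4.65-fold and 3.19-fold on the CDS), with the counted part of Eif1 too short for a firm value. The eIF1A genes, whose product works beside eIF1 in scanning, were closer to each other. Eif1a had 350.3 RPKM of footprints over 77.0 and 64.5 RPKM of RNA-seq, a log2 TE of 1.97, with 25.3% of its coding length counted. Eif1ax had 452 RPKM of footprints over 140.0 and 135 RPKM of RNA-seq, a log2 TE of 1.37, with 97.0% counted. The annotated length, joined over transcripts, was 968 nt for Eif1a and 432 nt for Eif1ax, so the counted shares of the pair are not on a like scale. Eif5, the GTPase activator of eIF2, had 215 RPKM of footprints over 99.9 and 83.6 RPKM of RNA-seq, a log2 TE of 0.89 ± 0.17. Eif5b, the GTPase of subunit joining, had 70.9 RPKM of footprints over 42.8 and 36.8 RPKM of RNA-seq, a log2 TE of 0.49, which became -0.07 with RNA-seq on the CDS.

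Eif5a, the hypusinated factor that helps ribosomes through proline-rich stretches, was the second member after Eef1a1 by footprint level. It had 2325 RPKM of footprints over 220 and 228 RPKM of RNA-seq, a log2 TE of 3.03 ± 0.05, and its whole coding length was counted. The value of Eif5a was 2.52 with RNA-seq on the CDS and 1.92 with counts not divided by length. Its paralogue Eif5a2 had 14.4 RPKM of footprints over 3.55 and 2.89 RPKM of RNA-seq, a log2 TE of 1.82 (interval 1.15 to 2.42). With counts not divided by length the value of Eif5a2 turned to -0.48. The pair differed by 161-fold in footprints and by 61.8-fold and 79.0-fold in mRNA on exons, or 110.9-fold and 88.6-fold on the CDS, so Eif5a was the predominant form at both levels. Eif6, which keeps the large ribosomal subunit from joining too early, had 887 RPKM of footprints over 250.4 and 293 RPKM of RNA-seq, a log2 TE of 1.36 ± 0.17. The alternative initiator tRNA carriers were lower. Eif2d had 22.7 RPKM of footprints over 45.1 and 45.9 RPKM of RNA-seq, a log2 TE of -1.34. Eif2a had 60.1 RPKM of footprints over 67.5 and 58.5 RPKM of RNA-seq, a log2 TE of -0.41. Eif1ad, a relative of eIF1A, had 70.0 RPKM of footprints over 25.2 and 25.4 RPKM of RNA-seq, a log2 TE of 1.13. This fell to 0.55 with RNA-seq on the CDS and turned to -0.12 with counts not divided by length.

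The elongation factors held most of the members' mRNA. Eef1a1, which delivers aminoacyl-tRNA, was the most abundant mRNA of all genes at 10985 and 11348 RPKM of RNA-seq, and ranked 24 by footprints with 7765 RPKM. Its log2 TE was -0.87 ± 0.04. Eef2, the translocase, ranked 6 by RNA-seq with 4154 and 4576 RPKM and 197 by footprints with 1227 RPKM. In the main setting it had the lowest log2 TE of all members, -2.17 ± 0.11, or 0.222-fold the median gene. Of its coding length 74.0% was counted. Both log2 TE values stayed below 0 with RNA-seq on the CDS, at -0.74 and -2.003. With counts not divided by length Eef1a1 had -0.22 and Eef2 -1.39, the latter above Eif4e3 at -2.38. Among the 100 highest genes by RNA-seq RPKM there were 5 members, and among the 100 highest by footprint RPKM there was 1.

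The subunits of eEF1B, the exchange factor of eEF1A, differed from each other. Eef1b2 (eEF1B alpha), which ranked 39 by RNA-seq and 165 by footprints, had 1591 RPKM of footprints over 1181 and 1235 RPKM of RNA-seq, a log2 TE of 0.06. With RNA-seq on the CDS it was -1.15, and 63.4% of its coding length was counted. Eef1d (eEF1B delta) had 329 RPKM of footprints over 112 and 115 RPKM of RNA-seq, a log2 TE of 1.19 ± 0.04. Eef1g (eEF1B gamma) had 1428 RPKM of footprints over 286 and 295 RPKM of RNA-seq, a log2 TE of 1.96 ± 0.05, but only 20.4% of its coding length was counted. Eef1e1, a component of the aminoacyl-tRNA synthetase complex despite its symbol, had 60.1 RPKM of footprints over 16.5 and 18.3 RPKM of RNA-seq, a log2 TE of 1.45. Reads of Eef1a1 could be shared with processed copies elsewhere in the genome, which were not examined.

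The 5 elongation factors that passed (Eef1a1, Eef1b2, Eef1d, Eef1g and Eef2) had a median log2 TE of 0.06 ± 0.06. For the 45 initiation factors that passed, taken as all genes with an Eif symbol, it was 0.39 ± 0.05. This group by symbol also holds Eif5a, Eif5a2, Eif6 and Eif4a3. The difference of the medians was -0.33, with 2 of 5 elongation factors and 17 of 45 initiation factors above 1. Of all genes that passed 20.8% were above 1, and 29.2% of those with at least 100 counts in each library. With RNA-seq on the CDS the difference was -0.95. Restricted to genes with at least 80% of the coding length counted it was -0.072, with 2 elongation factors left. The shares of each library gave the weight of the abundant factors. Elongation factors took 1.66% of all footprints (Wilson 95% interval 1.65% to 1.67%), against 3.13% and 3.30% of the RNA-seq counts of replicates 1 and 2. Initiation factors took 1.68% of all footprints (1.67% to 1.70%), against 1.38% and 1.34% of the RNA-seq counts. All members together took 3.35% of the footprints and 4.51% and 4.64% of the RNA-seq counts. Eef1a1 alone made up 35.7% of the members' footprints and 43.6% and 43.8% of their RNA-seq counts. Summed over genes, the elongation factors thus had a smaller share of ribosomes than of mRNA, and the initiation factors a larger one. With RNA-seq on the CDS the initiation factors took 1.58% and 1.51% of the counts, nearer to their share of footprints. Eif4a1 alone took 0.269% of all footprints against 0.0259% and 0.0257% of RNA-seq counts on the CDS. There the direction for the initiation factors depends on this gene.

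The 9 members known from the literature as TOP mRNAs (Eef1a1, Eef1b2, Eef1d, Eef1g, Eef2, Eif3e, Eif3f, Eif3h and Eif4b) had a median log2 TE of -0.73 ± 0.06, against 0.66 for the other 42 that passed. Of the 9, 6 lay below 0 and 3 below -1 (Eef2, Eif4b and Eif3f), while Eef1d and Eef1g lay above 1. These shares were 33.3% below -1 and 22.2% above 1, against 21.1% and 20.8% of all genes that passed. The 9 had a median RNA-seq level of 498 RPKM, against 81.7 RPKM for the other 42, and this level is the divisor of TE. The difference was not tested. The list was set beside the annotated start sites, searched for the base C at the first position followed by at least 4 bases that were each C or T. In the RefSeq promoter table (GRCm38.p6), 42 member symbols had an entry, among them 5 of the 9 TOP symbols, and 2 had a start of this form, 4.76% against 3.01% of all 27025 symbols. Each line gives the first 25 bases from an annotated start, with a run that meets this definition in capitals and all other bases in lower case. Eif3f on chr7:108934415-108934439 (plus strand) and Eif2s3x on chrX:94212627-94212651 (minus strand) opened with the motif. Eef2 on chr10:81176631-81176655 (plus strand), Eef1a1 on chr9:78481700-78481724 (minus strand) and Eef1b2 on chr1:63176831-63176855 (plus strand) did not at these positions.
Eif3f: CTCTCTTTCTCggcaagatggcttc
Eif2s3x: CTTTTCTCTCCgagcaagatggctg
Eef2: gttgacgtcagcggtctcttccgcc
Eef1a1: ttcccgagggtgggggagaacggta
Eef1b2: gccggaagtagccgaggccttgcgt

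The start counted as first depends on the annotation. Among the coding transcripts of GENCODE M21 (GRCm38), a source added after the data were seen, 7 of 54 member symbols had at least 1 start with the motif (Eef1b2, Eef1d, Eif2s1, Eif2s3x, Eif3f, Eif3m and Eif4a2), or 13.0% against 4.77% of all symbols. Members had 3.28 annotated coding starts each, with or without the motif, and all genes 2.48, so they had more chances to match. For Eef1b2 the transcript Eef1b2-209 on chr1:63177130-63177154 (plus strand) opened with a run of 13 pyrimidines, unlike the RefSeq start shown above, and is given here for that contrast.
Eef1b2-209: CTTTTTTTCCCTCagcgctggccgc
The log2 TE of these 7 ranged from -1.08 for Eif3f to 2.27 for Eif2s1. Which start the SCC cells used was not tested.

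Over the subunits of each complex the spread of footprints and of mRNA was compared as the SD of log2 RPKM. For eIF3 it was 0.41 for footprints and 0.58 for mRNA over the 12 single-gene rows, and 1.25 for mRNA with the joined row. For eIF2B it was 0.44 for footprints and 1.10 for mRNA, or 0.70 for mRNA counted on the CDS. For eEF1 (Eef1a1, Eef1b2, Eef1d and Eef1g) it was 1.86 for footprints and 2.88 for mRNA. In these 3 complexes footprints were more even than mRNA. The order was opposite for eIF2, with 1.93 for footprints and 0.52 for mRNA, or 0.84 for mRNA counted on the CDS. For eIF4F, counted with 5 genes (Eif4e, Eif4a1, Eif4g1 and the paralogues Eif4a2 and Eif4g3), it was 2.71 for footprints and 1.53 for mRNA. With only Eif4e, Eif4a1 and Eif4g1, a choice added after the data were seen, it was 2.11 and 1.93. For mRNA counted on the CDS it was 1.32 over the 5 genes and 1.37 over the 3, so how far footprints and mRNA lay apart depended on both choices. In eIF2 the low footprint level of Eif2s3y set the range, and its reads are hard to tell from those of Eif2s3x. Over all genes that passed the SD was 2.39 for footprints and 1.76 for mRNA.

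**Figure D2:**
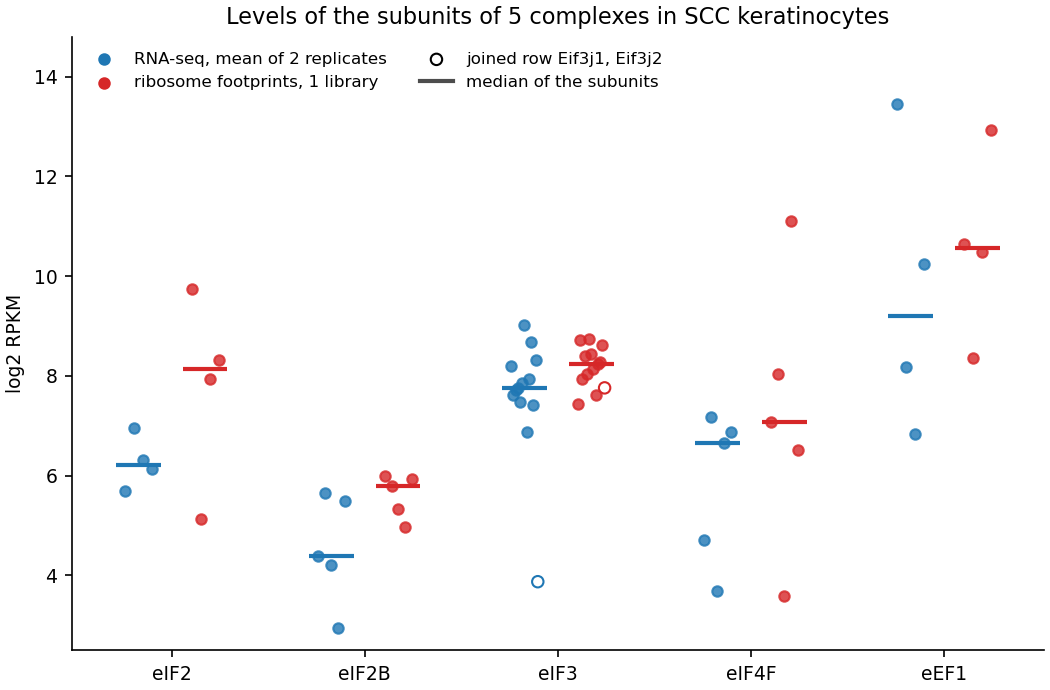
Log2 RPKM of each subunit of 5 complexes, for RNA-seq (blue, mean of 2 replicates) and ribosome footprints (red, 1 library), with the median of the subunits as a line and the joined row Eif3j1, Eif3j2 as an open circle. Footprints of the eIF3 subunits span 2.47-fold, while those of eIF4F with its paralogues span 182-fold, from Eif4g3 to Eif4a1, and those of Eif4e, Eif4a1 and Eif4g1 alone span 16.4-fold.

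Counting RNA-seq on the CDS instead of on exons moved single factors more than the group. The median of the members was then 0.21 and 18 were above 1, in place of 0.39 and 20 in the main setting. The share of all genes above 1 on the CDS is not given here, so the count is not compared with it. Of the members that passed, 40 had at least 80% of the annotated coding length counted, and 11 had less or an unknown share. The 37 initiation factors with at least 80% counted had a median log2 TE of 0.23 with 11 (29.7%) above 1. The 7 with less had a median of 1.97 with 5 (71.4%) above 1. Of all genes that passed 20.8% were above 1, and this share is not given here by counted part, so whether all genes shift alike was not tested. Several of the highest values, those of Eif4e, Eif1 and Eif1a, rested on a short counted stretch, whereas Eif4a1, Eif5a and Eif2s2 did not.

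**Figure D3:**
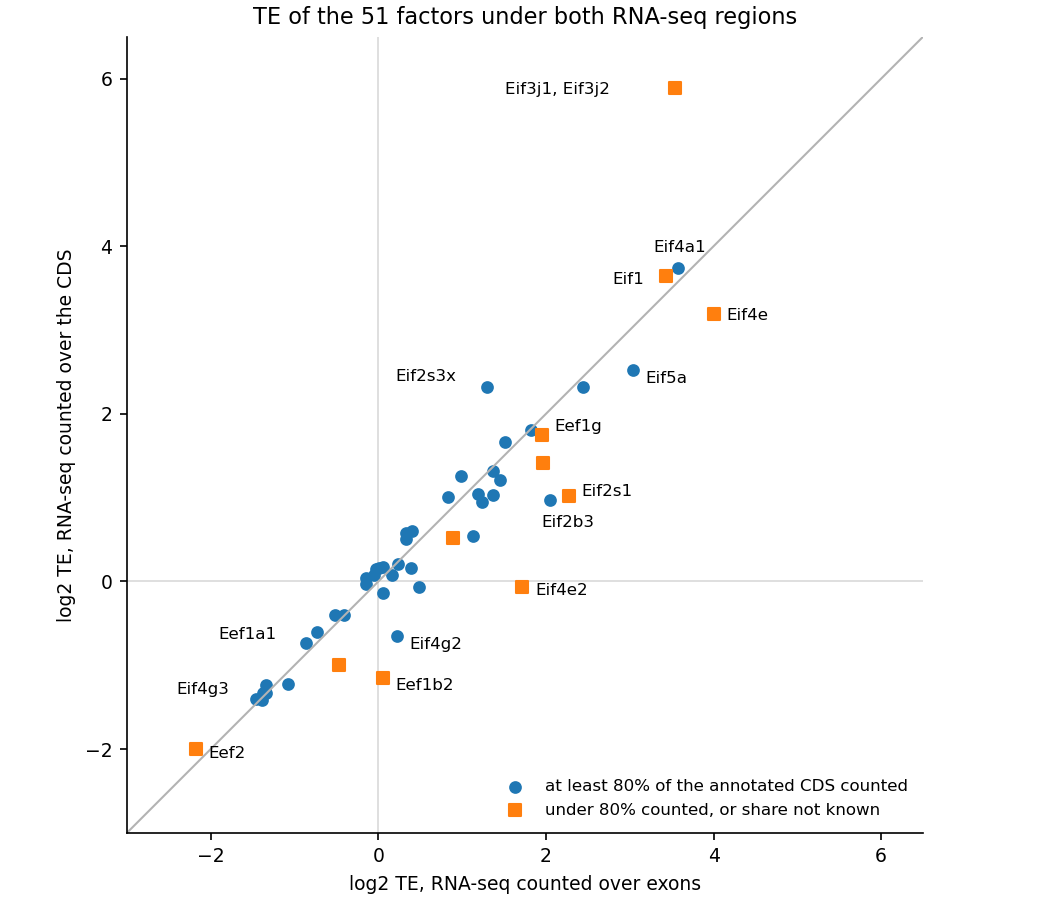
Log2 TE of the 51 factors with RNA-seq counted over exons (x axis) and over the CDS (y axis), with the line of equal values. Blue circles stand for genes whose counted CDS covered at least 80% of the annotated one, and orange squares for those with less or an unknown share. Eif4e2 falls from 1.72 to -0.06, while Eif4a1 and Eef2 stay near the line.

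Footprints on the 5′UTR were compared with those on the CDS per nucleotide for the 19 members with at least 30 footprints on at least 60 counted nt of 5′UTR and at least 10 on the CDS. The median log2 ratio was -1.40, against -1.01 over all 1102 such genes, and none of the 19 was denser on the 5′UTR, against 24.3% of all. Because the minimum applies to footprints on the 5′UTR, shallow genes enter mainly when they are dense there, so these shares depend on depth and were not compared at equal depth. The highest ratio was that of Eif4g2, which is known to start at a GUG codon, at -0.09 (interval -0.29 to 0.11) from 241 footprints on 332 nt. Eif1ad followed at -0.34 (interval -0.73 to 0.05). Eif4g1, known to have several start codons, had -0.42 (interval -0.82 to -0.04). Eif5, whose mRNA carries upstream open reading frames that regulate its own synthesis, had -0.62 (interval -0.84 to -0.41) from 241 footprints on 484 nt. Eif1a had -0.83 (interval -1.08 to -0.58). These 5 highest ratios stood at percentiles 56.4 to 73.6 of all genes with enough counts. Eif1ax, the paralogue of Eif1a, lay lower at -1.15.

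At the other end were factors with high footprint levels on the CDS. Eif5a had the lowest ratio at -4.58, from 313 footprints on 911 nt. Eef1b2 had -4.27 and Eif4a1 -3.86. Eef1g had -3.49 and Eef1a1 -2.91. Eef2, with the lowest TE in the main setting, had -1.23, close to the median of all genes. These ratios were not corrected for the mRNA that carried the counted 5′UTR, and the order of the members depends on it. The same ratio in RNA-seq was -2.79 for Eif5a, -2.23 for Eef1b2, -1.95 for Eef1g and -1.04 for Eef1a1. For Eif4a1 it was -7.59, with 1.64 counts of RNA-seq in that region in replicate 1 and 0.673 in replicate 2, beside 65.6 footprints, so the counted 5′UTR was nearly absent from its mRNA reads. Of the 5 highest, Eif4g2 had -1.98, Eif5 -1.85, Eif4g1 -1.47, Eif1ad -0.52 and Eif1a -0.27. Of the 19 members, 5 (26.3%) had a higher ratio in footprints than in RNA-seq (Eif4a1, Eif4g2, Eif5, Eif4g1 and Eif1ad). Of these Eif4a1 rests on the few counts just given. For Eif1ad the RNA-seq ratio, -0.52, lies within the interval of its footprint ratio, -0.73 to 0.05. Among the 1092 genes that had this ratio in both kinds of library the share was 61.4%, again not compared at equal depth.

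**Figure D4:**
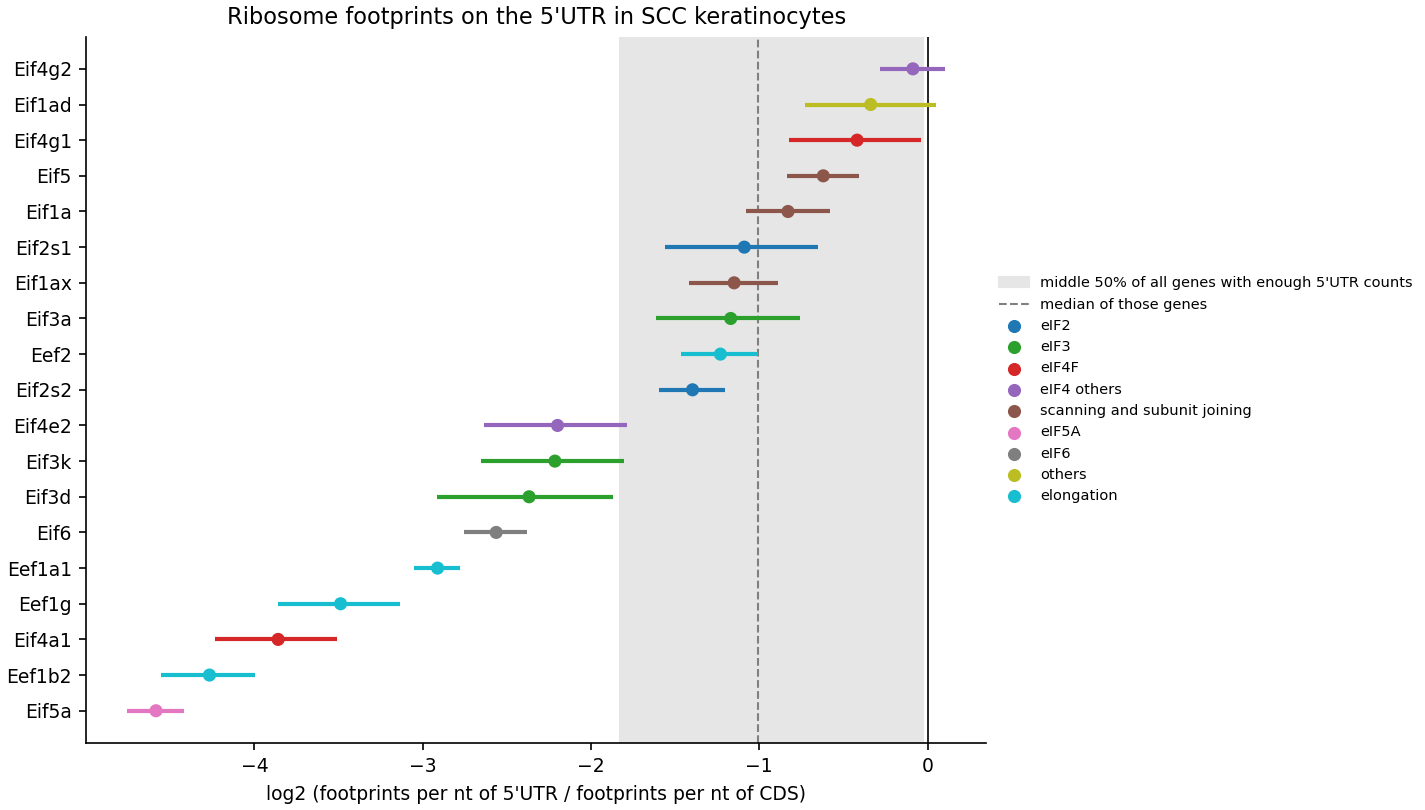
Footprints per nt of 5′UTR over footprints per nt of CDS, as log2, for the 19 members with enough counts, with exact 95% counting intervals as lines and roles as colours. The grey band is the middle 50% of the 1102 genes with enough counts and the dashed line their median, -1.01. Eif4g2 is highest at -0.09 and Eif5a lowest at -4.58.

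The ratio between the RNA-seq replicates spread less over the members than over all genes, which were shallower and were not compared at equal depth. The log2 ratio of replicate 2 to replicate 1 had an SD of 0.14 over the members, against 0.17 over all genes with at least 100 counts and 0.20 over all genes that passed, and ranged from -0.32 to 0.23. The largest differences among members with at least 100 counts were those of Eif5 at -0.26, Eif1a at -0.25 and Eif3e at -0.25. The chi-square of their counts over the members was 26.3 per degree of freedom. It sets the difference against counting error alone and takes estimated counts as independent, so it does not show whether the cultures were separate.

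Of 25 other genes of the pathway that the rule leaves out, 24 passed, with a median log2 TE of -0.52. Of these 24, 3 lay above 1 and 7 below -1, where all genes that passed had 20.8% above 1 and 21.1% below -1. Whether the shares of these genes differ from those of all genes was not tested. Gspt1, the GTPase release factor eRF3a, had 167 RPKM of footprints over 36.8 and 33.5 RPKM of RNA-seq, a log2 TE of 1.91. Denr, a reinitiation factor, had 1.51, and Etf1, the release factor eRF1, had 1.13. With RNA-seq on the CDS all 3 fell below 1, at 0.78 for Gspt1, 0.35 for Denr and 0.79 for Etf1. Mcts1, the partner of Denr, had -0.22, and the recycling factor Abce1 had 0.68. The lowest was Pdcd4, an inhibitor of eIF4A, with 22 footprints, or 4.41 RPKM, over 48.0 and 46.6 RPKM of RNA-seq, a log2 TE of -3.77 (interval -4.44 to -3.17). Mknk2, a kinase of eIF4E, had 42.6 RPKM of footprints over 191 and 218 RPKM of RNA-seq, a log2 TE of -2.60. Pabpc1, the poly(A)-binding protein and itself a TOP mRNA, had 264 RPKM of footprints over 1190.0 and 1077 RPKM of RNA-seq, a log2 TE of -2.45. The eIF4E-transporter Eif4enif1, the kinase Mtor and the eIF2 kinases Eif2ak4 and Eif2ak3 lay between -1.33 and -1.16, whereas the other eIF2 kinases, Eif2ak1 and Eif2ak2, had -0.33 and 0.82. The eIF4E-binding protein gene Eif4ebp1 had 292 RPKM of footprints over 161 and 183 RPKM of RNA-seq, a log2 TE of 0.42, and Eif4ebp2 had 36.0 RPKM of footprints over 56.4 and 55.2 RPKM of RNA-seq, a log2 TE of -0.97. By footprints per length Eif4ebp1 was thus near Eif4e, its target, at 262 RPKM.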

How the data were processed

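The authors trimmed the reads (Trim Galore), removed ribosomal, mitochondrial and tRNA reads from the footprint library with Bowtie2 2.4.1, aligned to GRCm38 with STAR 2.6.1 and deposited Plastid counts per gene for exons, CDS, 5′UTR and 3′UTR, which are estimated counts that need not be whole. The positions left out of the counted lengths are not given in the sources used here. The deposited RPKM columns were not used, and RPKM was computed from the counts with the totals of each library. The filter used counts rounded to whole numbers and DESeq2 1.42.0 size factors (R 4.3.3), and edgeR 4.0.16 gave an alternative scaling. Intervals came from scipy 1.17.1. Counted lengths were compared with the coding exons of GENCODE M21, joined over all transcripts of a gene. A low counted share therefore need not mean that as much of the main coding sequence was left out. The TE calculation was tested on simulated data, whose outcome is not given here. With 1 genotype and 1 footprint library no test of a difference was run.

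Members and gene lists were chosen with earlier results of these data known. Named were the members of eIF2, eIF3, eIF4F and elongation with at least 100 counts in each library, the 5 highest and 5 lowest TE, the 3 largest replicate differences, the 5 highest 5′UTR ratios, paralogues, the joined row, the TOP list and other pathway genes, and further members by role.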

Additional observations from a re-analysis of the deposited data

Results flagged for a closer look

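Footprints on the 3′UTR lie outside every comparison above and exceeded the 3 counts that a 0 allows. They came to 917 over the members, or 0.857 per 100 footprints on the CDS, against 2.04 per 100 over all genes. The largest number was in Eef1a1 (332), followed by Eif5a (65.8) and Eif4h (57.6). No control library was analysed here, and their source was not tested.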

How the results depend on the processing

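Every value rests on 1 footprint library and 1 genotype, so counting error is known but biological spread of TE is not, and members with few footprints or a short counted CDS are the least certain. No paired analysis was possible because the groups compared share fewer than 2 replicate numbers. The cause of each change was not tested unless stated.

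With 1 or the other RNA-seq replicate left out, the median log2 TE of the members ranged from 0.33 to 0.41 and the difference between elongation and initiation factors from -0.32 to -0.31. Scaling by DESeq2 size factors or edgeR TMM moved none of the medians by 0.01 or more. As TE is relative to the median gene, such scaling changes only the weight of each RNA-seq replicate, so little movement was possible. A minimum of 1 count in place of the main filter lowered the medians by 0.034. A pseudocount of 1 RPKM changed the difference between elongation and initiation factors to -0.30.

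With at least 100 counts in every library, which recentres on deeper genes, the median of the members turned to -0.059 with 12 above 1, that of elongation factors to -0.34, of eIF3 to -0.36 and of the TOP list to -1.12, and the difference to -0.28. With counts not divided by length these were 0.70 for the members, -0.22 for elongation factors, 0.82 for eIF3, -0.22 for the TOP list and -0.92 for the difference, with 4 members below -1, and the log2 TE of Eif1a (-0.44), Eif1ad (-0.12) and Eif5a2 (-0.48) changed sign. The recentring on deeper genes by itself lowered each value by 0.39. Shares of all genes above 1 or below -1 are not given for either setting, so these member counts are not compared with them. With RNA-seq counted over the CDS the medians were 0.21, -0.74 and 0.16 for the members, elongation factors and eIF3, the difference was -0.95, and Eif4e2 changed sign to -0.063. Restricting to genes whose counted CDS covered at least 80% of the annotation gave 0.34 for the members, 0.22 for the 2 elongation factors left and a difference of -0.072. The coding transcripts of GENCODE M21, added after the data were seen, gave 7 members with a TOP motif in place of 2. Without the paralogues Eif4a2 and Eif4g3, a choice also added later, the SD of log2 RPKM over eIF4F changed from 2.71 to 2.11 for footprints and from 1.53 to 1.93 for mRNA. Over the 75 members and pathway genes that passed, counting RNA-seq on the CDS raised 38 values and lowered 37, and no other value past 1 or -1 changed sign in any setting run than the 4 above. The settings for the TOP list were also added later.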

Other observations

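Among the other pathway genes, 8 had enough footprints on the 5′UTR for a ratio to the CDS, and 2 of them were denser on the 5′UTR, beside 24.3% of all genes with such a ratio. Eif4ebp2, an inhibitor of eIF4E, had a log2 ratio of 2.78, from 108 footprints on 123 nt of 5′UTR and 46.0 on 360 nt of CDS. The same ratio in RNA-seq was -6.63, from 0.129 and 1.86 counts on the 5′UTR in replicates 1 and 2, so the counted 5′UTR was nearly absent from the mRNA reads and the footprint ratio is uncertain. Dohh, the second enzyme that makes hypusine on eIF5A, had 0.66 (interval 0.14 to 1.16), beside 0.45 in RNA-seq, which lies within that interval. Both were picked out after their values were seen.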
